A study of Mus musculus with 2 samples.

Results

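The genes described are 9 that carry the time signal of the circadian clock into liver metabolism: the transcription factors Dbp, Tef, Hlf and Nfil3, the repressors Bhlhe40, Bhlhe41 and Ciart, and the enzymes Noct and Usp2. They were chosen by name, with earlier results of these data known. Every probe set (a group of short probes read as 1 value) whose annotation gives exactly 1 of these symbols was taken. All 9 genes were found, with 15 probe sets among 45101, and each gene was represented by whichever of its probe sets had the highest mean of the 2 arrays. Of the 9 genes, 7 had a mean log2 value of at least 6 and were called measured, against 9299 of 18193 genes in all. Bhlhe41 and Ciart lay under that minimum.

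Livers of Yap+/- mice, which carry 1 functional copy of Yap1 (the gene of the Hippo pathway co-activator YAP), were compared with livers of Yap+/+ mice. The Yap+/- line had been crossed to C57BL/6 for 6 generations or more, and mice of both genotypes were untreated and killed on postnatal day 30. Livers of 5 mice were pooled per genotype and each pool was read on 1 array, so each value is a single measurement and no difference was tested. The labels used here give neither the sex of the mice, nor their feeding, nor the hour at which they were killed. If the pools differed in any of these, its part in the values of rhythmic genes cannot be told apart from that of genotype.

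The clock of a liver cell is a loop in which CLOCK and BMAL1 (the product of Arntl) bind E-boxes and activate their own repressors, the PER and CRY proteins. The same E-boxes drive Dbp and its PAR bZIP relatives Tef and Hlf, activators that bind D-box elements and pass the rhythm on to genes of detoxification and of lipid and bile acid metabolism. Nfil3 represses from the same D-boxes, while Bhlhe40, Bhlhe41 and Ciart repress at E-boxes or on CLOCK-BMAL1 itself. Noct encodes nocturnin, a rhythmic phosphatase of NADP(H) that was first described as a deadenylase, and Usp2 encodes a deubiquitinating enzyme whose liver transcript is strongly rhythmic.

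Promoter sequences are shown for the genes with the largest differences, Noct, Usp2 and Dbp, and for Ciart, whose window is the richest in E-boxes. They were taken from RefSeq (GRCm38.p6) and run from 250 bases before a transcription start to 50 after it, 5′ to 3′ on the strand of the gene. A promoter was matched for 8 of the 9 genes, by 9 windows. The windows are chr3:51224197-51224496 on the plus strand for Noct, chr9:44084670-44084969 on the plus strand for Usp2, chr7:45704997-45705296 on the plus strand for Dbp and chr3:95882179-95882478 on the minus strand for Ciart. The Usp2 window belongs to a start inside the annotated gene, and that of Dbp also lies somewhat inside it. Capitals mark E-boxes (CACGTG).
Noct: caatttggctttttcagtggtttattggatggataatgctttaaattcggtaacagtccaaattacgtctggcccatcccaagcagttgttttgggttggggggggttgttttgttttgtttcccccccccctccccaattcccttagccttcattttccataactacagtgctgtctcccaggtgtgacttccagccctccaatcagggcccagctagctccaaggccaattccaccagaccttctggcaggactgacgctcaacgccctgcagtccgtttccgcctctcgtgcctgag
Usp2: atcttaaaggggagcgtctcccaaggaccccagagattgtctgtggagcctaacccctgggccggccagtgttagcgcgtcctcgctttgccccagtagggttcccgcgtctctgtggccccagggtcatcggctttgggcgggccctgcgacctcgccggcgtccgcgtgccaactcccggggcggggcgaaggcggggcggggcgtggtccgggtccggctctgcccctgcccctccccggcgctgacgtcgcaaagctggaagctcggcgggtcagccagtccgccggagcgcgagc
Dbp: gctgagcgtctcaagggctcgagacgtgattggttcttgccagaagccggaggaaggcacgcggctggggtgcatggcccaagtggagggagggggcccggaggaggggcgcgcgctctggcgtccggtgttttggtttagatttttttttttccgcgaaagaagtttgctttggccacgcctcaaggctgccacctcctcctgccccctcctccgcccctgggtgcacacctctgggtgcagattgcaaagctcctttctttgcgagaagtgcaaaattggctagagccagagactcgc
Ciart: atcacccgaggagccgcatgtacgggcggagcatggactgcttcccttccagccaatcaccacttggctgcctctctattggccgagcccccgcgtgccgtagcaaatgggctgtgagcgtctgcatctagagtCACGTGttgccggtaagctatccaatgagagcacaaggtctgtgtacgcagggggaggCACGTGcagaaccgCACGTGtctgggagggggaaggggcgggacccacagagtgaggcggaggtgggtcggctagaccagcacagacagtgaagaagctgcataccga

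The windows were searched on both strands for the E-box CACGTG, the related CACGTT, the D-box forms TTACGTAA and TTATGTAA, and TAGGTCA, the core of the element bound by ROR and REV-ERB receptors. The E-box occurred in windows of 3 of the 8 genes, Ciart, Tef and Bhlhe41, against 8.09% of the 27025 genes in the table (7.15% of its 32851 windows of the same length). Ciart held 3 of them, starting at -116, -58 and -44 from the transcription start. Both windows of Tef held 1, as did that of Bhlhe41. The ROR core occurred in Nfil3, against 2.97% of all genes and 2.61% of all windows. The D-box occurred in 0 of the 8 genes (1.23% of all genes, 1.06% of windows) and CACGTT in 0 as well (5.44% of genes, 4.68% of windows). The windows of Noct, Usp2, Dbp and Hlf held none of these letters, which says nothing of elements elsewhere in these genes.

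The matches outside Ciart are shown with 15 bases on either side, with the motif in capitals. They lie at chr15:81802531-81802566 and chr15:81811261-81811296 on the plus strand for the outer and inner start of Tef, at chr6:145865553-145865588 on the minus strand for Bhlhe41, and at chr13:52981030-52981066 on the minus strand for an inner start of Nfil3, where the ROR core is read on the opposite strand.
Tef, outer start: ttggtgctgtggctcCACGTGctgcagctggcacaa
Tef, inner start: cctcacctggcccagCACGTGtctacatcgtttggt
Bhlhe41: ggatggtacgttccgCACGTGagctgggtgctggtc
Nfil3: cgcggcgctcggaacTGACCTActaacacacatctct

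**Figure D1:**
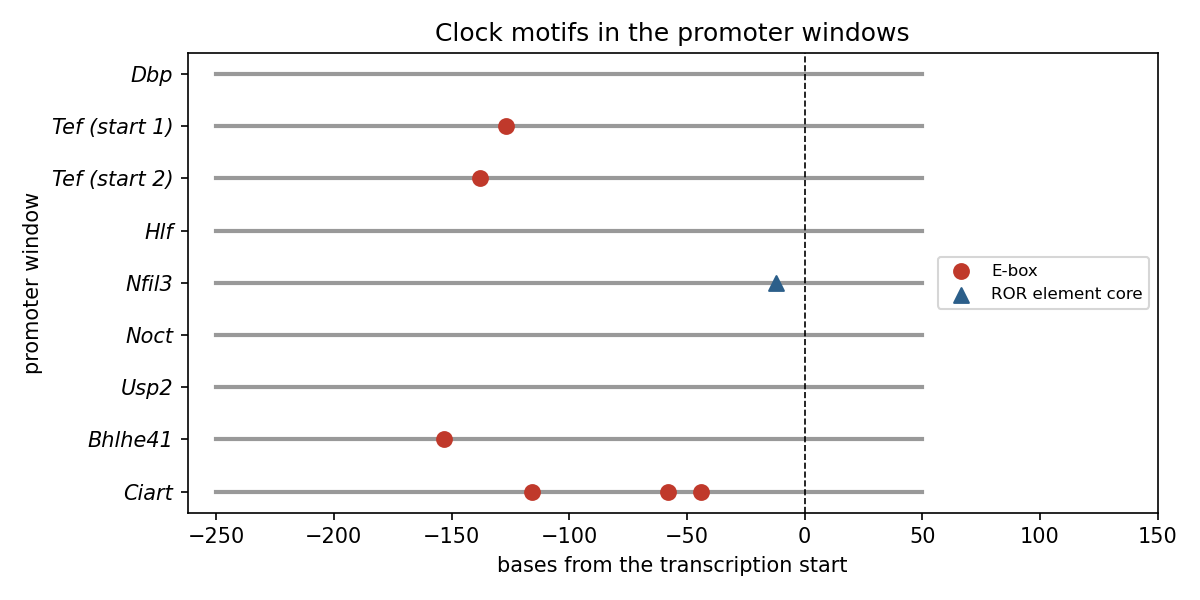
Positions of the motif matches in the 9 promoter windows of 8 genes, in bases from the transcription start (dashed line). Circles are E-boxes and the triangle is the ROR element core, each drawn at its first base. The windows of Dbp, Hlf, Noct and Usp2 hold no match.

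The 9 genes did not move as a block. Noct was 2.36-fold lower in Yap+/- liver, while Usp2 was 1.60-fold, Dbp 1.38-fold and Bhlhe40 1.25-fold higher, and Tef, Hlf and Nfil3 differed by less than 1.1-fold. Of the 7 measured genes, 5 were higher and 2 lower in Yap+/-, with a median log2 difference (Yap+/- minus Yap+/+) of 0.10, against 0.00 over all 9299 measured genes, of which 48.8% were higher. At 2-fold, 1 of the 7 was lower, where 0.226% of all measured genes were, and 0 were higher, where 0.0968% of all were. At 1.5-fold, Noct alone was lower and Usp2 alone higher, beside 0.645% lower and 0.699% higher among all measured genes. At 1.2-fold, 3 of the 7 were higher and 1 lower, beside 6.02% higher and 5.45% lower among all. Dbp counts among the 3 on its brighter probe set, while its second, 1.16-fold higher, fell short of 1.2-fold. Because the members were chosen with earlier results of these data known, these counts describe them and test nothing.

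For scale, each difference is also given against the robust SD of the difference among the 500 genes nearest in mean level. That figure describes how widely genes of that level differed between these 2 arrays. It does not separate array noise from differences between the pools, and the spread between mice or pools was not measured. Over all measured genes the robust SD was 0.15, and the 2 brightest measured probe sets of a gene disagreed by a robust SD of 0.17 over 3406 genes.

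**Figure D2:**
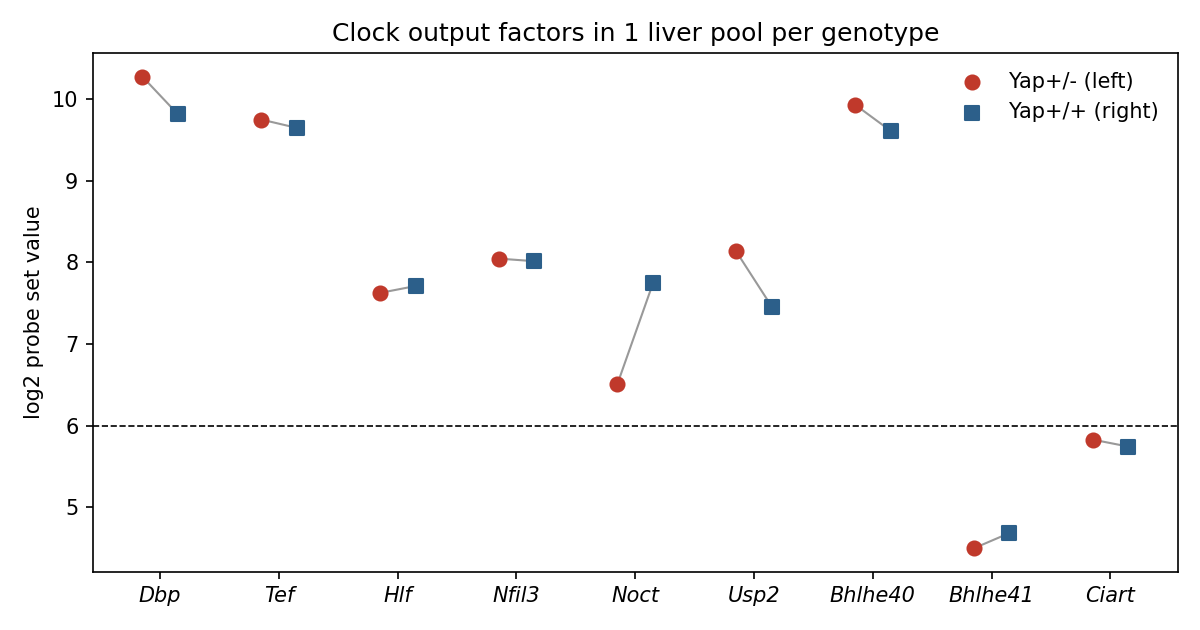
Log2 value of the representative probe set of each gene, with the Yap+/- pool as a circle on the left and the Yap+/+ pool as a square on the right of each pair. Each point is 1 array, and the dashed line is the minimum mean of 6. Noct has the widest gap, 6.51 in Yap+/- and 7.75 in Yap+/+, and Bhlhe41 and Ciart lie under the line.

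Noct differed most. It read 6.51 in the Yap+/- pool and 7.75 in the Yap+/+ pool, a log2 difference of -1.24. This was -7.52 in units of the local robust SD of 0.16, the 17th most negative difference of 9299 measured genes and the 23rd by size in either direction. In whole liver, fewer cells that express a gene and less of its RNA per cell cannot be told apart. The value rests on 1 probe set, marked by the array's maker as one that reads several transcripts of the gene. The Yap+/- value stood above the median of all probe sets on that array, 4.92, but is not shown to be above background, and with 64 added on the linear scale before the log the difference was -0.85, short of 2-fold.

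The measured genes whose difference was nearest in size to that of Noct were Ly6d (-1.25), Cyp7a1 (-1.26) and Acta2 (-1.13). Ly6d, a surface protein of the Ly6 family, read 5.91 in Yap+/- and 7.16 in Yap+/+. Cyp7a1, which starts the main route of bile acid synthesis, read 8.78 in Yap+/- and 10.0 in Yap+/+. Acta2, smooth muscle actin, read 7.92 in Yap+/- and 9.05 in Yap+/+. Over only 2 arrays, likeness means a difference of similar size and nothing more.

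Usp2 was the member furthest in the other direction. On its brighter probe set it read 8.13 in Yap+/- and 7.46 in Yap+/+, a log2 difference of 0.68, or 4.83 local robust SDs. The second gave 7.46 in Yap+/- and 6.60 in Yap+/+, 1.82-fold higher in Yap+/-, with a log2 difference of 0.86. Both probe sets pointed the same way, but both are annotated to the same sequence and were read on the same 2 arrays. On the brighter probe set Usp2 had the 37th most positive difference of all measured genes.

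Among the PAR bZIP activators, Dbp was higher and its relatives hardly differed. Dbp, the most rhythmic of them, read 10.3 in Yap+/- and 9.81 in Yap+/+, a log2 difference of 0.46 or 3.31 local robust SDs, the 127th most positive. Its second probe set gave 8.43 in Yap+/- and 8.22 in Yap+/+, a difference of 0.21, so the direction was shared and the size was not. The brighter one carries the suffix that the maker uses for probes shared between transcripts, and without such probe sets Dbp was 1.16-fold higher.

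Tef, which acts beside Dbp in liver and kidney, read 9.75 in Yap+/- and 9.65 in Yap+/+, a difference of 0.10. That is 0.80 local robust SDs and so within the spread of genes of its level. Its other probe sets were dim and went opposite ways, at 5.28 in Yap+/- and 5.12 in Yap+/+ for one, and 4.48 in Yap+/- and 5.01 in Yap+/+ for the other. With all 3 averaged, the difference turned to -0.08. Hlf read 7.62 in Yap+/- and 7.71 in Yap+/+, a difference of -0.08, and its second probe set, at 6.94 in Yap+/- and 7.003 in Yap+/+, gave -0.06. Both values of Hlf were under 1 local robust SD.

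**Figure D3:**
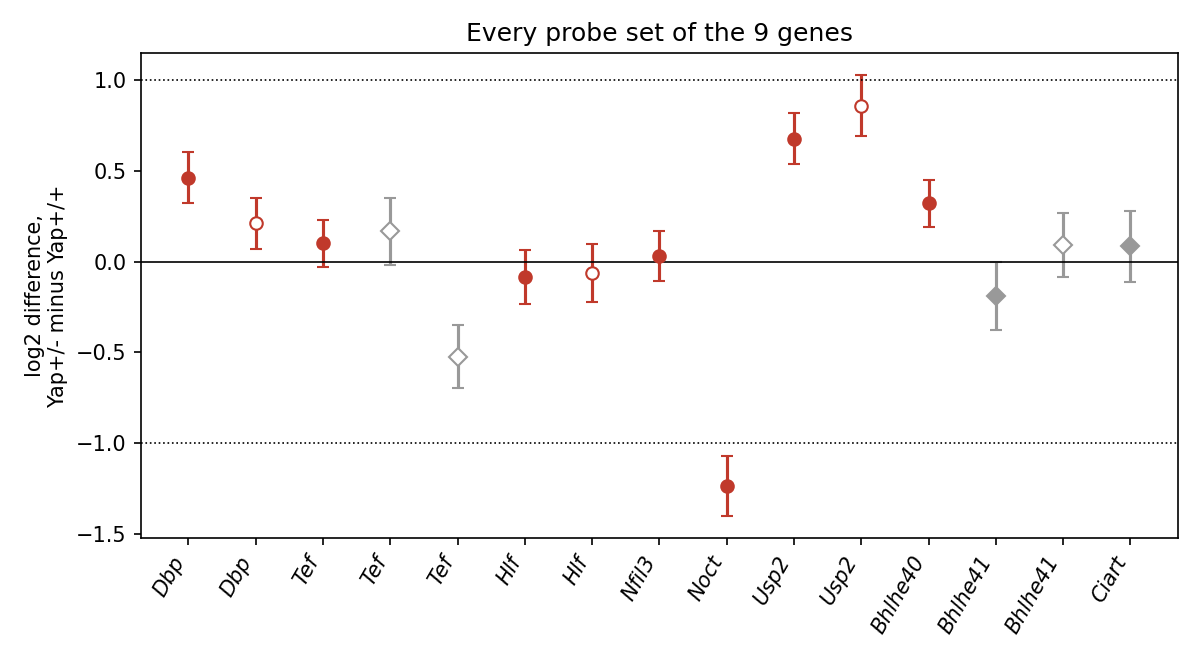
Log2 difference, Yap+/- minus Yap+/+, for each of the 15 probe sets of the 9 genes. Filled symbols represent the gene, open symbols are its other probe sets, grey diamonds have a mean under 6, bars are plus and minus 1 local robust SD (not a replicate error), and dotted lines are 2-fold. Both probe sets of Usp2 lie above 0.6, and Noct lies below -1.

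Nfil3, which represses the D-box genes that the PAR bZIP factors activate, did not mirror Dbp. It read 8.05 in Yap+/- and 8.01 in Yap+/+, a difference of 0.03 or 0.23 local robust SDs. Bhlhe40, a repressor at E-boxes that also responds to hormones, hypoxia and feeding, read 9.93 in Yap+/- and 9.61 in Yap+/+. Its difference of 0.32 was 2.48 local robust SDs and the 360th most positive, on 1 probe set.

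The remaining repressors were too dim to rank. Bhlhe41, the close relative of Bhlhe40, had a brighter probe set at 4.49 in Yap+/- and 4.68 in Yap+/+, and another at 3.80 in Yap+/- and 3.71 in Yap+/+, with opposite signs. Ciart, whose product binds CLOCK-BMAL1, read 5.83 in Yap+/- and 5.74 in Yap+/+. Its difference of 0.09 was 0.44 local robust SDs.

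**Figure D4:**
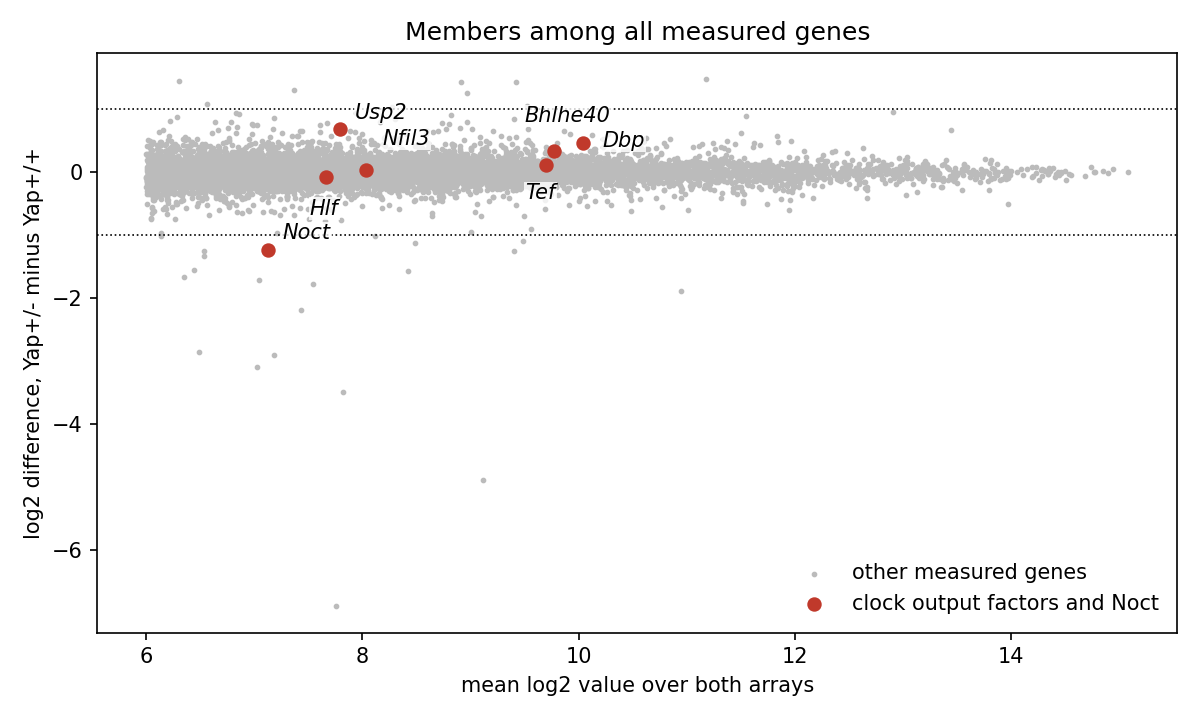
Log2 difference, Yap+/- minus Yap+/+, against the mean log2 value over both arrays for the 9299 measured genes (grey) and the 7 measured members (red), with dotted lines at 2-fold. Noct lies below the cloud of genes of its level and Usp2 at its upper edge, while Tef, Hlf and Nfil3 lie inside it.

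Of 16 core clock genes found, 11 were measured, and 6 were higher and 5 lower in Yap+/-. On the representative probe set 0 were past 1.5-fold, beside 0.699% higher and 0.645% lower among all measured genes. The median of the loop genes was 0.10. It was 0.06 with all probe sets of a gene averaged, 0.05 with only probe sets without a suffix and 0.04 without the filter. Per1, the period gene that also answers to glucocorticoids, read 8.13 in Yap+/- and 7.59 in Yap+/+, 1.45-fold higher. The REV-ERB genes Nr1d1 and Nr1d2, repressors of Arntl, differed by 0.25 and 0.19. Arntl itself read 6.96 in Yap+/- and 7.23 in Yap+/+, 1.21-fold lower, while its partner Clock differed by -0.02.

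Among the other loop genes, Cry2 differed by 0.13, Rora by -0.05, Csnk1d by 0.10 and Timeless by -0.15. With a mean of at least 6, other probe sets of Rora gave 0.19, 0.19, 0.14, -0.16 and 0.32. Those of Csnk1d gave -0.03, 0.06, -0.17 and -0.11, and those of Clock 0.11 and 0.01. Csnk1e, a kinase that marks PER proteins for degradation, was 1.42-fold higher on a probe set near the minimum, at 6.45 in Yap+/- and 5.94 in Yap+/+, but its next brightest gave -0.16. Per3 differed by -0.03 on its brightest probe set, at 7.08 in Yap+/- and 7.11 in Yap+/+. Its next 3 stood at 6.84, 6.79 and 6.33 in Yap+/-, against 6.29, 6.01 and 5.41 in Yap+/+, which is higher in Yap+/- by 0.54, 0.78 and 0.92. The values given for Per3, Csnk1e, Clock, Rora and Csnk1d, and so the counts of higher and lower loop genes, thus depend on the probe set taken.

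Genes that PAR bZIP factors have been reported to activate in mouse liver went both ways. Of 16 symbols listed, 11 genes were found and 10 measured, so the counts do not cover every listed target. Of the 10 measured, 4 were higher, as Dbp was, and 6 lower in Yap+/-, with a median of -0.04. Among all measured genes, 48.8% were higher. Alas1, the first enzyme of haem synthesis, read 9.70 in Yap+/- and 9.14 in Yap+/+, 1.47-fold higher, and its second probe set differed by 0.60. Cyp7a1, given above, was the 1 target past 2-fold, where 0.226% of all measured genes were lower. The second probe set of Cyp7a1 differed by -1.60. Nr1i3, the xenobiotic receptor CAR, read 9.15 in Yap+/- and 9.57 in Yap+/+, 1.34-fold lower. Ppara, the fatty acid receptor, differed by 0.12. Of the 10 listed targets with a promoter window, 0 held either D-box form, beside 1.23% of all genes. At that share, 0 of 10 does not set the targets apart from other genes.

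Relatives of the members were set beside them. Of 15 measured deadenylase genes and cofactors, 9 were higher and 6 lower. Of them 0 were past 1.5-fold, where 0.699% of all measured genes were higher and 0.645% lower. The median of this list, 0.04, turned to -0.05 when all probe sets of a gene were averaged. The furthest were Tob2, an adaptor that recruits the CCR4-NOT complex, at 1.29-fold higher, and its relative Tob1 at 1.21-fold lower. Other probe sets of Tob2 with a mean of at least 6 differed by 0.57, 0.02 and 0.17, so its size depends on the probe set. Of 34 other measured ubiquitin-specific proteases, 15 were higher, 17 lower and 0 past 1.5-fold in either direction, with a median of -0.01. At the shares given for all genes, a count of 0 in lists of this size says little. Usp46 was 1.30-fold and Usp8 1.22-fold lower, and the most positive difference among them was 0.25, against 0.68 for Usp2.

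In the C/EBP family, bZIP relatives of Dbp, 3 of 5 measured genes were higher and 2 lower. Ddit3, the stress factor CHOP, read 8.06 in Yap+/- and 7.28 in Yap+/+, 1.72-fold higher, and Cebpb was 1.31-fold higher, while Cebpa differed by 0.00. Of the Hes and Hey genes, bHLH relatives of Bhlhe40 and Bhlhe41, only 2 of 9 were measured. Hes1, a Notch target, read 8.02 in Yap+/- and 6.72 in Yap+/+, 2.45-fold higher, and Hes6 differed by -0.03.

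**Figure D5:**
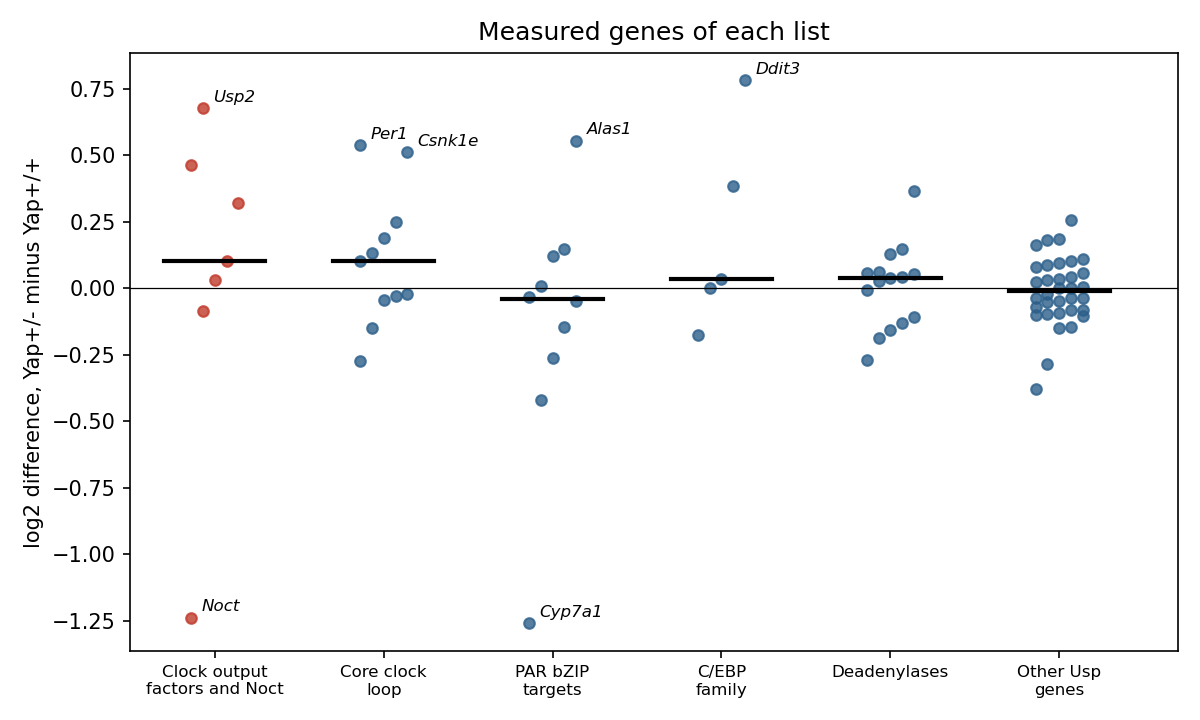
Log2 difference, Yap+/- minus Yap+/+, of each measured gene (dot) in 6 lists, with the median as a black bar; genes that differ by at least 0.5 are named. The member list spans -1.24 (Noct) to 0.68 (Usp2), and the other ubiquitin-specific proteases lie between -0.38 and 0.25.

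Some features of the pools ran alongside these differences. The labelled tissue was checked by the hepatocyte markers Alb, Apoa1, Ttr, Cps1, Tat and Hnf4a, which read 12.1 to 15.1 in both pools. All 6 Kupffer cell markers were higher in Yap+/-, with a summed linear level of 6621 in Yap+/- and 5202 in Yap+/+. Among the sinusoidal endothelial markers, 4 of 6 were higher (4913 in Yap+/- and 4196 in Yap+/+), beside 48.8% of all measured genes. Fcgr2b (0.36) and Clec4g (0.29) led, then Lyve1 (0.20) and Stab2 (0.15), with Oit3 at -0.04 and Kdr at -0.03. Other probe sets of Fcgr2b with a mean of at least 6 gave 0.08, -0.14 and 0.05. Of the stellate and smooth muscle markers 4 of 6 were lower (2198 in Yap+/- and 2629 in Yap+/+), led by Acta2 (-1.13), Tagln (-0.75) and Des (-0.41). The others of that list, Lrat, Reln and Col1a1, differed by -0.07, 0.0005 and 0.03. The bile duct and neutrophil lists had only 1 measured marker each, and their counts include genes under the minimum. Of 5 bile duct markers 4 were lower (194.4 in Yap+/- and 369.0 in Yap+/+), led by Krt19 (-1.90) and the measured Muc1 (-1.67), with Krt7 at -0.15, Epcam at -0.11 and Sox9 at 0.26. Of 5 neutrophil markers 4 were higher (262.8 in Yap+/- and 136.4 in Yap+/+), led by S100a8 (1.59) and the measured S100a9 (1.43). The others, Elane, Cxcr2 and Mpo, were under the minimum and differed by 0.26, 0.02 and -0.10. The 5 lymphocyte markers, 4 of them higher, were all under the minimum and read at most 5.93 in either pool. The excess of 3-prime over 5-prime signal in control transcripts was larger in Yap+/- by 0.22 for Gapdh, 0.21 for pyruvate carboxylase and 0.20 for beta-actin on the log2 scale. Their part in the differences of the clock output genes was not tested. Yap1 itself stood at 9.24 in Yap+/- and 9.40 in Yap+/+ on its brighter probe set, and at 5.77 in Yap+/- and 6.01 in Yap+/+ on the other. The labels do not say whether either lies in the disrupted part.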

How the data were processed

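Liver RNA of 2 pools was read on Affymetrix arrays labelled from the 3-prime end, per the labels' protocols. The authors deposited 1 log2 value per probe set and array, and RMA and Partek 6.5 are named in the submitters' processing notes, without settings. Once sorted, both columns were within 0.047 of each other throughout. Gene names come from the annotation of the platform, in which 34945 probe sets had exactly 1 symbol. Differences are Yap+/- minus Yap+/+. With 1 array per genotype there is no test, and the number of arrays limits the precision. The counting was tested on simulated data.

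The members and lists were chosen with earlier results of these data known. The genes named are every member, Yap1, core clock genes (each could be named, and Fbxl21 and Btrc, both under the minimum, were not), defining cell type markers, up to 2 genes per direction of each list past 1.2-fold, and the 3 genes nearest to Noct. Ppara, Cebpa, Hes6 and Fgf21 were added after their values were seen. Core clock and target genes without a single-symbol probe set, and protein sequences, were not used here. Alternatives were other probe set rules, filters, scalings and thresholds. Tools were matplotlib 3.10.9, statsmodels 0.14.6, pandas 2.3.3 and numpy 2.4.6 under Python 3.11.15.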

Additional observations from a re-analysis of the deposited data

How the results depend on the processing

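Of 130 values recomputed under alternatives to the settings used, 118 moved by less than the robust SD of 0.15 or, for counts, by no more than 1.5 times. Some alternatives could move little. Median centring took the median of all measured genes only to -0.00033, and averaging probe sets cannot change a gene that has 1. Quantile normalisation had little to change, since the sorted columns were already within 0.047 of each other. With a trend over mean level removed, the median of all measured genes was 0.001. The 118 thus include values that could hardly have moved. The number of members past the threshold and higher in Yap+/- was 1 at 1.5-fold and 3 at 1.2-fold, against 0 at 2-fold. The 3 include Dbp, whose second probe set, 1.16-fold higher, fell short of 1.2-fold. The number at least 2-fold lower was 0 with only probe sets without a suffix, since Noct has none of these, and 0 with 64 added on the linear scale, where Noct differed by -0.85 and Usp2 by 0.53. Dbp differed by 0.21 with only probe sets without a suffix and Tef by -0.08 with the mean of all probe sets. The median of the measured members stayed between 0.03 and 0.21, and was 0.21 without Noct. The median of the C/EBP family was 0.18 with the mean of all probe sets, against 0.03. The median of the Hes and Hey genes, 0.63 over 2 genes, was 1.29 with only probe sets without a suffix, -0.027 without the filter and 0.45 with 64 added. No paired analysis was possible because each genotype has 1 pool. No detection call or background signal was used, so values under 6 have unknown precision.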

Other observations

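A further probe set is annotated to Noct together with Sgip1 and Cog6 and was left out because its signal cannot be assigned to 1 gene. It read 11.1 in Yap+/- and 11.2 in Yap+/+, a log2 difference of -0.06. Of the core clock genes under the minimum mean of 6, Npas2, the paralogue of Clock, read 4.54 in Yap+/- and 4.58 in Yap+/+. Per2 read 5.98 in Yap+/- and 5.91 in Yap+/+, with differences of 0.18 and -0.15 on its other probe sets. Cry1 read 5.43 in Yap+/- and 5.40 in Yap+/+. Fgf21, a fasting hormone on the list of PAR bZIP targets, read 5.05 in Yap+/- and 4.70 in Yap+/+, under the same minimum.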
